A study of Homo sapiens with 4 samples.

Results

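The satellite and ribosomal DNA peaks of ZNF416 were the peaks that the deposited list places on sequences of the hg19 build with a "_" in their name, which are contigs that the assembly could not place, or could not order, on a chromosome. They numbered 306 of the 1386 peaks of the list, 22.1% (exact 95% interval over peaks 19.9 to 24.4). They lay on 13 contigs and were put in 4 classes, in this order: the 44 peaks of contig gl000220, which carries ribosomal RNA genes, then 205 peaks whose centre the authors annotated as alpha satellite, 27 annotated as beta satellite, and the other 30. The label of satellite and ribosomal DNA covered 282 of the 306 peaks by repeat name or contig: 238 lay on a satellite of any kind and 44 on gl000220. The remaining 24 lay on dispersed repeats or on sequence without a repeat name.

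The list comes from chromatin immunoprecipitation and sequencing (ChIP-seq) of IMR90, an established human lung fibroblast line. All cells had been given a FLAG-tagged ZNF416 gene by lentivirus, were selected with puromycin and received no further treatment. The 2 pull-down libraries were made with anti-FLAG beads, and the 2 input libraries from chromatin without an antibody. The tagged protein was expressed from a vector, and no pull-down from cells without the tag was among these libraries. The list holds no value of a single library, so the depth is unknown and no value below has a spread between replicates. Peaks that share a contig are neighbours on 1 sequence and are not replicates, so the classes were described and not tested. The intervals of shares cover counting of peaks only.

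Alpha satellite is the tandem repeat of human centromeres, in which a monomer recurs head to tail and blocks of monomers recur in turn. Beta satellite is another tandem repeat, found around centromeres and on the short arms of the chromosomes that carry ribosomal DNA. Ribosomal DNA is itself a tandem array: each unit holds the 45S transcript, which is cut into 18S, 5.8S and 28S ribosomal RNA, followed by a long intergenic spacer. ZNF416 belongs to the KRAB zinc finger proteins, a family of which many members bind repeated sequence. A read from 1 copy of such a repeat can match many others, and an assembly holds fewer copies than a cell does. How reads with several matches were treated is not given in the sources used here, and the input signal on these contigs was not analysed here. Binding and read pile-up therefore cannot be told apart for any peak below.

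The only landmark of gl000220 for which a sequence of the annotation was at hand is the microRNA gene MIR6724-2, shown because it was the nearest gene of 24 of the 44 peaks and because its start marks the upstream side of each ribosomal unit. Its mature product in RefSeq (GRCh38.p14) has 23 bases, printed 5′ to 3′ with the seed, bases 2 to 8, in capitals.
hsa-miR-6724-5p: cUGGGCCCgcggcgggcgugggg
RefSeq names 4 MIR6724 genes and 5 copies each of the 45S, 18S, 5.8S and 28S genes, and the 2 MIR6724 genes with a sequence in the table used here share this mature sequence. The copy number in a gene name on gl000220 is thus only the label that the authors' annotation chose. Sequence of the contigs themselves in the hg19 build was not used here.

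The classes differed in height, width and packing, as the plots of score and width by class show. Alpha satellite peaks had the highest median of the authors' score, 84 (quartiles 54 and 110, range 13 to 246), and beta satellite peaks had 76 (63 and 95.5, range 25 to 151). The other contig peaks had a median of 53 (range 18 to 195) and the ribosomal contig 46.5 (33 and 53.25, range 17 to 85). The 1080 peaks on assembled chromosomes had a median of 60 (41 and 83), which lay between the satellites and the other 2 classes. The score is a whole number per peak without a stated scale, and it serves here only to rank peaks within the list.

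A score at or above the upper quartile of the list, 87, was reached by 25.8% of all 1386 peaks. Of the alpha satellite peaks 95 of 205 reached it, 46.3% (39.4 to 53.4), and of the beta satellite peaks 9 of 27, 33.3% (16.5 to 54.0). Only 4 of the 30 other contig peaks did, and 0 of the 44 ribosomal peaks (upper limit of the exact interval 8.04%). On chromosomes 249 peaks reached it, 23.1% (20.6 to 25.7). The shares of the 2 satellite classes lay above the background share of all peaks, which includes them, and those of the other 2 classes below it. The intervals count neighbouring peaks of a contig as if they were independent, so they do not decide which classes differ from the background. The alpha satellite share rested on the contig gl000199: of the other 28 alpha satellite peaks 6 reached 87, 21.4% (8.30 to 41.0), which is below the background share with an interval that includes it. Among the 100 highest scores of the list were 25 alpha satellite peaks, 2 beta satellite peaks, 2 other contig peaks and 0 ribosomal peaks. In the same order these classes made up 14.8%, 1.95%, 2.16% and 3.17% of the list, so beta satellite and other contig peaks were near their share. All 25 alpha satellite peaks lay on gl000199, since the best alpha satellite peak elsewhere ranked 214.

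**Figure D1:**
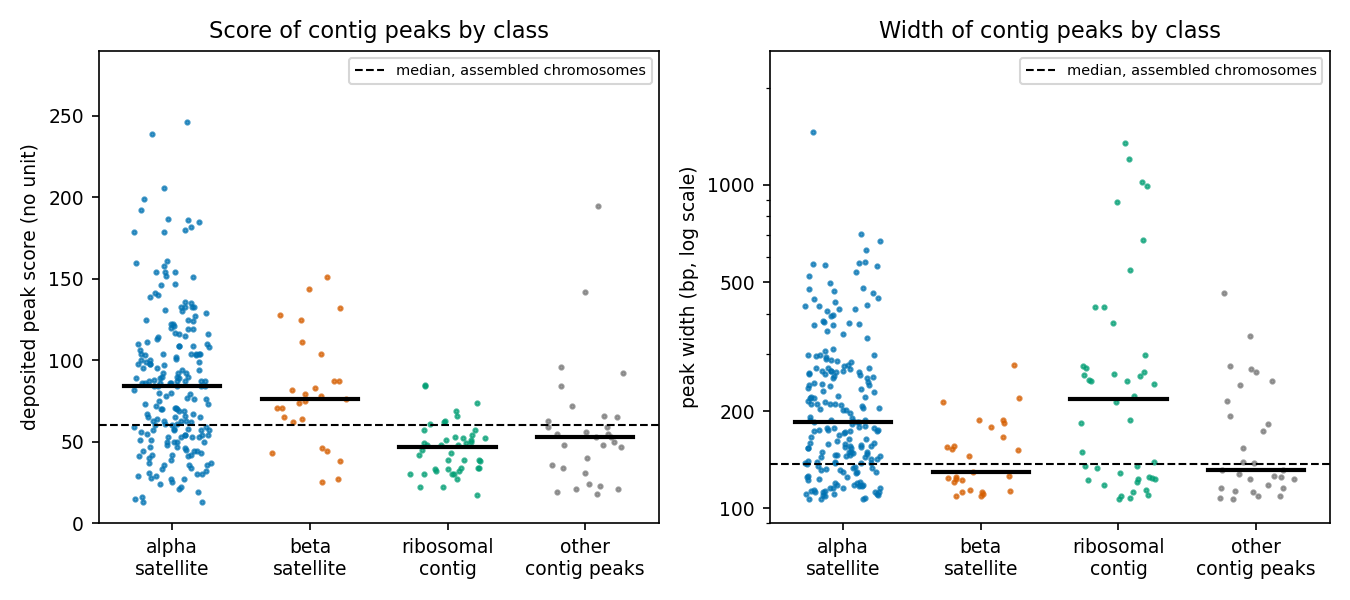
Deposited score (left, no unit) and width (right, bp on a log axis) of the 306 contig peaks by class, 1 point per peak, with horizontal bars at the class medians and a dashed line at the median of peaks on assembled chromosomes. Alpha satellite has the highest median score, 84, and the ribosomal contig the lowest, 46.5, although the ribosomal peaks have the largest median width, 218.5 bp.

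The order of the widths was another one. Ribosomal peaks were widest, with a median of 218.5 bp (quartiles 123.75 and 281), followed by alpha satellite with 185 bp (139 and 271). The other contig peaks had a median of 131 bp and beta satellite peaks 130 bp, against 137 bp on chromosomes. The narrowest peaks, at 107 bp, occurred on alpha satellite, on gl000220, on the other contigs and on chromosomes alike.

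Peaks of 500 bp or more were rare, 2.09% of all peaks of the list. They made up 7 of the 44 ribosomal peaks, 15.9% (6.64 to 30.1), and 11 of the 205 alpha satellite peaks, 5.37%, of which 10 lay on the single contig gl000226. None of the 27 beta satellite peaks and none of the 30 other contig peaks was that wide. The wide peaks of gl000220 and gl000226 had lower median scores than those of chromosomes. On chromosomes the 11 wide peaks scored from 86 to 355 with a median of 246, while narrower ones had a median of 59. The 7 wide peaks of gl000220 scored from 30 to 57 (median 33) and its narrower ones had a median of 48. The 10 of gl000226 scored from 46 to 89 (median 68), against 71.5 for its narrower ones. No peak of gl000220 of any width scored above 85, so its wide peaks could not overlap in score with wide chromosome peaks. The wide peaks of gl000226 overlapped with wide chromosome peaks only at 86 to 89. The 1 wide peak of gl000199 (104326 to 104891, 566 bp) went the other way. Its score of 121 lay within the range of wide chromosome peaks and above the median of 86.5 for the narrower peaks of that contig. Over all peaks of a class, Spearman's rank correlation of width and score was 0.18 across the 1080 chromosome peaks and 0.20 across the 30 other contig peaks. It was −0.03 across the 205 alpha satellite peaks, −0.11 across the 44 ribosomal peaks and −0.40 across the 27 beta satellite peaks. These are descriptions across peaks that share libraries and contigs.

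Alpha satellite and ribosomal peaks were packed closely and beta satellite peaks were not. The median distance between the centres of neighbouring peaks was 665 bp on alpha satellite (quartiles 405 and 1024), 797.5 bp on gl000220, 2430 bp among the other contig peaks and 5219.5 bp on beta satellite (1295 and 10243). The share of peaks with another peak within 1 kb, edge to edge, was 26.9% in the list as a whole. It was 97.1% for alpha satellite (199 of 205), 81.8% for gl000220 (36 of 44), 37.0% for beta satellite (10 of 27) and 36.7% for the other contig peaks (11 of 30), against 10.8% on chromosomes (117 of 1080). The contig peaks supplied 256 of the 373 peaks of the list with so close a neighbour. The smallest gap between neighbours was 52 bp both on alpha satellite and on chromosomes, and 254 bp on beta satellite.

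**Figure D2:**
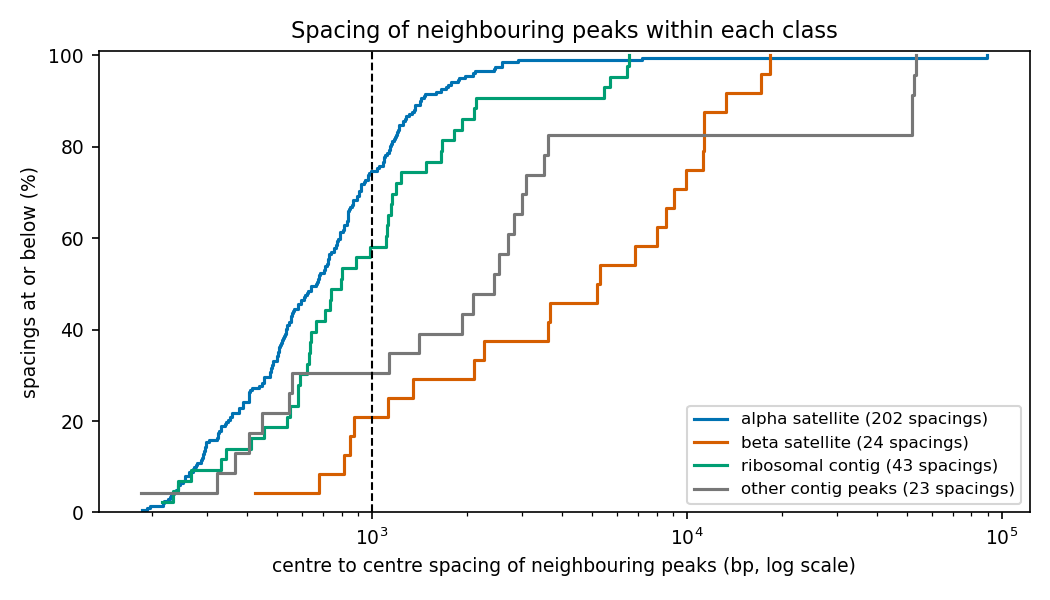
Cumulative share of centre to centre spacings between neighbouring peaks of a class (vertical axis, %) against the spacing (horizontal axis, bp on a log scale), with a dashed line at 1 kb. On alpha satellite 151 of 202 spacings lie under 1 kb, on beta satellite 5 of 24.

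Of the 205 alpha satellite peaks, 177 lay on gl000199, a contig assigned to chromosome 9. They ran from 24105 to 169835, a span of 145731 bp, of which 25.04% lay inside peaks. Their median width was 177 bp and their median score 87 (quartiles 53 and 117). Both high and low scores stood side by side along the whole span. In 4 equal parts of the span the median score was 84, 87, 88 and 86, and the parts held 33, 50, 44 and 50 peaks. Scores within the parts ran from 27 to 246, 16 to 199, 15 to 182 and 13 to 239. The first part was the thinnest, with 19.0% of its bases in peaks against 26.0% to 28.3% in the others.

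The highest score of the class, 246, belonged to a peak of 147 bp (44921 to 45067), which ranked 11 in the whole list. Next came peaks with a score of 239 (162294 to 162418, 125 bp) and 206 (136452 to 136571, 120 bp), ranks 15 and 22. These 3 peaks were narrower than the median alpha satellite peak. The lowest score, 13, was shared by 2 peaks of this contig, of 180 bp (149122 to 149301) and 188 bp (150996 to 151183), and 13 was also the lowest value of the list.

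The other contigs with alpha satellite looked different. The 24 peaks of gl000226, which is assigned to no chromosome, filled 72.7% of a span of 14902 bp (63 to 14964). Their median width was 478.5 bp (118 to 1455), and their scores held a narrow range, from 46 to 99 with a median of 70.5. The widest peak of all contigs lay here (4917 to 6371, 1455 bp), and its score of 46 was the lowest on this contig. Only 4 of the 24 reached a score of 87, a share of 16.7% (4.74 to 37.4), against 89 of 177 on gl000199, 50.3% (42.7 to 57.9). On gl000208, assigned to chromosome 19, there were 4 peaks with scores of 106 (61 to 315), 42 (90015 to 90257), 104 (90543 to 90682) and 21 (92290 to 92499). The first of these stood 89948 bp from the next, and both it and the first peak of gl000226 began within 100 bp of the start of their contig. The high median of the class rested in part on gl000199: without it the other 28 alpha satellite peaks had a median score of 70.5 and a median width of 439 bp. That score lay below the median of 76 of beta satellite peaks but above the 60 of chromosome peaks.

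**Figure D3:**
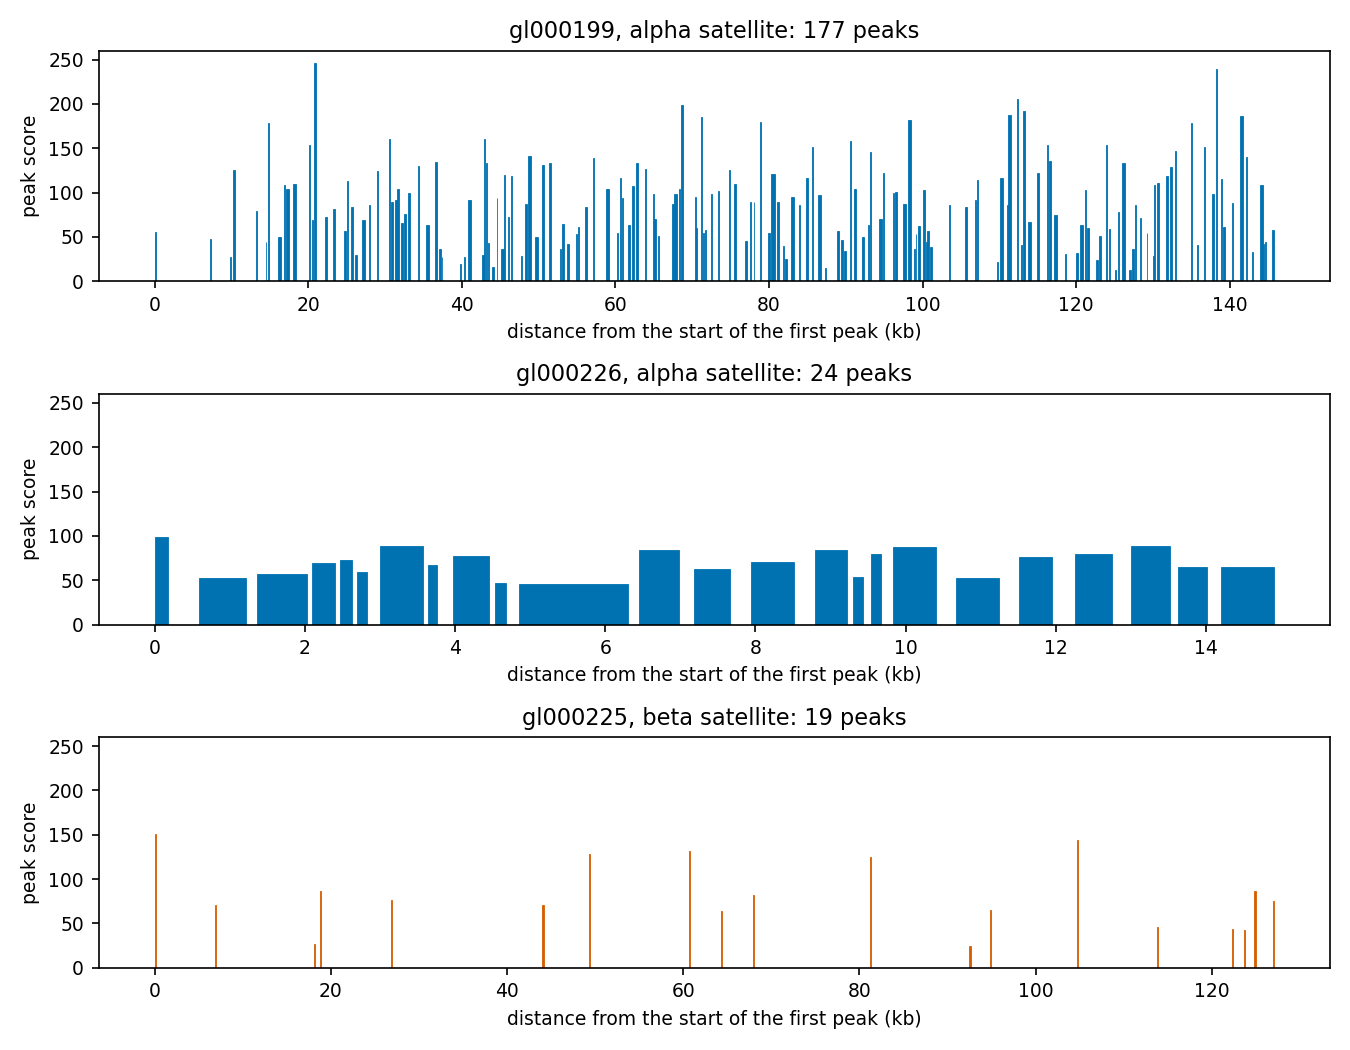
Peaks along 3 satellite contigs, as bars whose height is the deposited score (no unit) and whose width is the peak, against the distance from the start of the first peak (kb). Scores on gl000199 run from 13 to 246 side by side, gl000226 is filled to 72.7% by peaks of even score, and the 19 beta satellite peaks of gl000225 stand far apart.

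To see whether the peaks kept step with a tandem repeat, the centres were folded at each whole-number period from 100 to 4000 bp. The resultant length was taken at each period, which is 1 when all centres fall at the same place of the period and near 0 when they are spread evenly. On gl000199 the largest value was 0.18, at 556 bp, over a median of 0.05 for the 3901 periods tried. A period of 171 bp, the length usually given for an alpha satellite monomer, had 0.17, the 4th largest value. With peak starts in place of centres the largest value was 0.22, at 170 bp, and with only the peaks at or above the median score of the list it was also 0.22, at 372 bp. The period with the largest value on gl000199 thus changed with each of these choices. None of the whole-number periods tried gathered the centres of gl000199 tightly. Periods between whole numbers were not tried, although the value fell from 0.17 at 171 bp to 0.03 at 172 bp. The scan therefore cannot tell whether a period between whole numbers would gather the centres. The larger value on gl000226, 0.55 at 263 bp, came from only 24 peaks, and 720 bp gave 0.42, near the median spacing of 702.5 bp there. With only its peaks at or above the median score of the list, the period with the largest value moved from 263 to 723 bp.

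**Figure D4:**
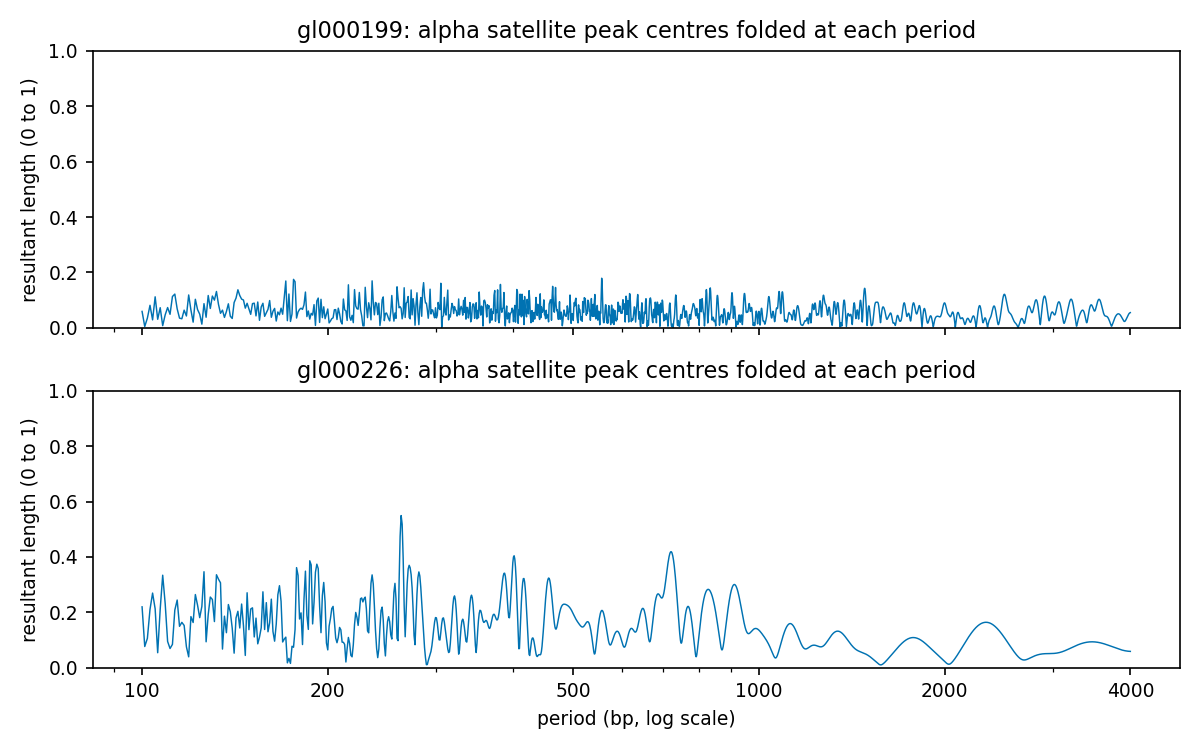
Resultant length (0 to 1) of alpha satellite peak centres folded at each whole-number period from 100 to 4000 bp (log axis) on gl000199 (177 peaks) and gl000226 (24 peaks). The largest values are 0.18 at 556 bp and 0.55 at 263 bp.

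The 27 beta satellite peaks lay on 3 contigs that are assigned to no chromosome: 19 on gl000225, 4 on gl000216 and 4 on gl000228. On gl000225 the peaks were narrow, with a median of 123 bp (109 to 220), and covered 2.05% of a span of 127041 bp, with a median spacing of 7434.5 bp. Their scores had a median of 75 and a wide range, from 25 to 151. The highest score of the class was 151 (6816 to 6928, 113 bp), followed by 144 (111495 to 111603, 109 bp) and 132 (67469 to 67589, 121 bp). The lowest was 25, on a wider peak (99293 to 99475, 183 bp). Across the 19 peaks of gl000225, Spearman's rank correlation of width and score was −0.49. Higher scores thus tended to go with narrower peaks on this contig.

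On gl000216 the 4 beta satellite peaks had scores of 78 (145134 to 145410), 104 (163500 to 163651), 111 (164390 to 164513) and 74 (169549 to 169678). The first, of 277 bp, was the widest of the class. Another peak of that contig, with a score of 31 (75837 to 76018), lay 69345 bp upstream on a pentamer satellite and belongs to the other contig peaks. On gl000228 the 4 peaks stood within 2263 bp, and their scores were 79 (117164 to 117316), 83 (117571 to 117758), 62 (118374 to 118586) and 38 (119239 to 119426). All 4 were annotated to intron 2 of a non-coding transcript of DUX4, from 4635 to 6727 bp downstream of its start. DUX4 encodes a double homeobox transcription factor and lies in a macrosatellite array, D4Z4. They were the only satellite peaks of either class with a nearest gene, since the other 228 lay on contigs without an annotated start site. Beta satellite peaks without gl000225 had a median score of 78.5, a median width of 170.5 bp and a median spacing of 864 bp. That spacing pools the close peaks of gl000228, 424.5 to 852.5 bp apart, with those of gl000216. Neighbouring beta satellite peaks of gl000216 were 18303.5, 876 and 5162 bp apart, so wide spacing was not confined to gl000225.

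The ribosomal contig had 44 peaks between 101773 and 161153, and 23.4% of this span lay in peaks. The start sites to which the annotation measured its distances show 2 copies of the ribosomal unit. The 18S gene starts at 109078 and again at 153050, and MIR6724-2 at 104732 and again at 148704. Both pairs are exactly 43972 bp apart. The 28S gene of the first copy starts at 113348.

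Most of these peaks lay in the spacer and few in the ribosomal RNA genes. Between the first 45S transcript and the second MIR6724-2 start there were 34 peaks (121005 to 147961), which filled 44.9% of the span from the first of them to the last. A further 3 lay upstream of the first MIR6724-2 start (101773 to 103022), and 1 at the annotated end of the 45S transcript RNA45SN5 (119191 to 119325, score 42). Downstream of the MIR6724-2 starts, in the stretch of the ribosomal RNA genes, there were 3 peaks in each copy, which filled 4.76% of the span from first to last in the first copy and 6.41% in the second. The median score was 48.5 in the spacer, 27 in the gene stretch of the first copy and 33 in that of the second.

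In the first copy, the peak at the 18S gene scored 27 and was centred 248 bp downstream of its start (109262 to 109390). The authors' annotation put this peak at the end of the microRNA gene MIR10396B, whose position on the contig was not checked here. Peaks of score 39 (114943 to 115066) and 17 (117086 to 117210) were annotated to the 45S transcript, 1656 and 3800 bp downstream of the 28S start. The score of 17 was the lowest of the contig. In the second copy, a peak of score 33 was centred 251 bp downstream of the 18S start (153241 to 153361). Another, of score 69, was annotated to the 18S exon (154413 to 154659), and a peak of score 30 lay on a 28S repeat (161015 to 161153).

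The stretch that holds peaks in both copies allows a comparison of corresponding places of the unit. It runs from the first peak of the contig to the peak at the 28S gene, and it held 6 peaks in each copy. When the second copy was laid over the first by 43972 bp, 4 of the 6 had a partner within 100 bp. At the 18S gene the centres differed by 3 bp (scores 27 and 33). At the 28S gene the second lay 36 bp closer to its 18S start than the first (17 and 30). Upstream of MIR6724-2 the shifts were 17.5 bp (85 and 50) and 59.5 bp, the latter on an AluSx repeat in both copies (43 and 51). In 3 of the 4 pairs the second copy had the higher score. The 2 peaks without a partner were those of score 45 (102781 to 103022) and 39 in the first copy, and of 34 (147712 to 147961) and 69 in the second. The peak of score 69 in the 18S exon thus had no counterpart in the first copy. The partner distance was chosen with these values in view. Among windows of 100 bp between 40 and 48 kb, the window that holds the copy distance had the most pairs of peaks, 3, and the median window had 0.

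**Figure D5:**
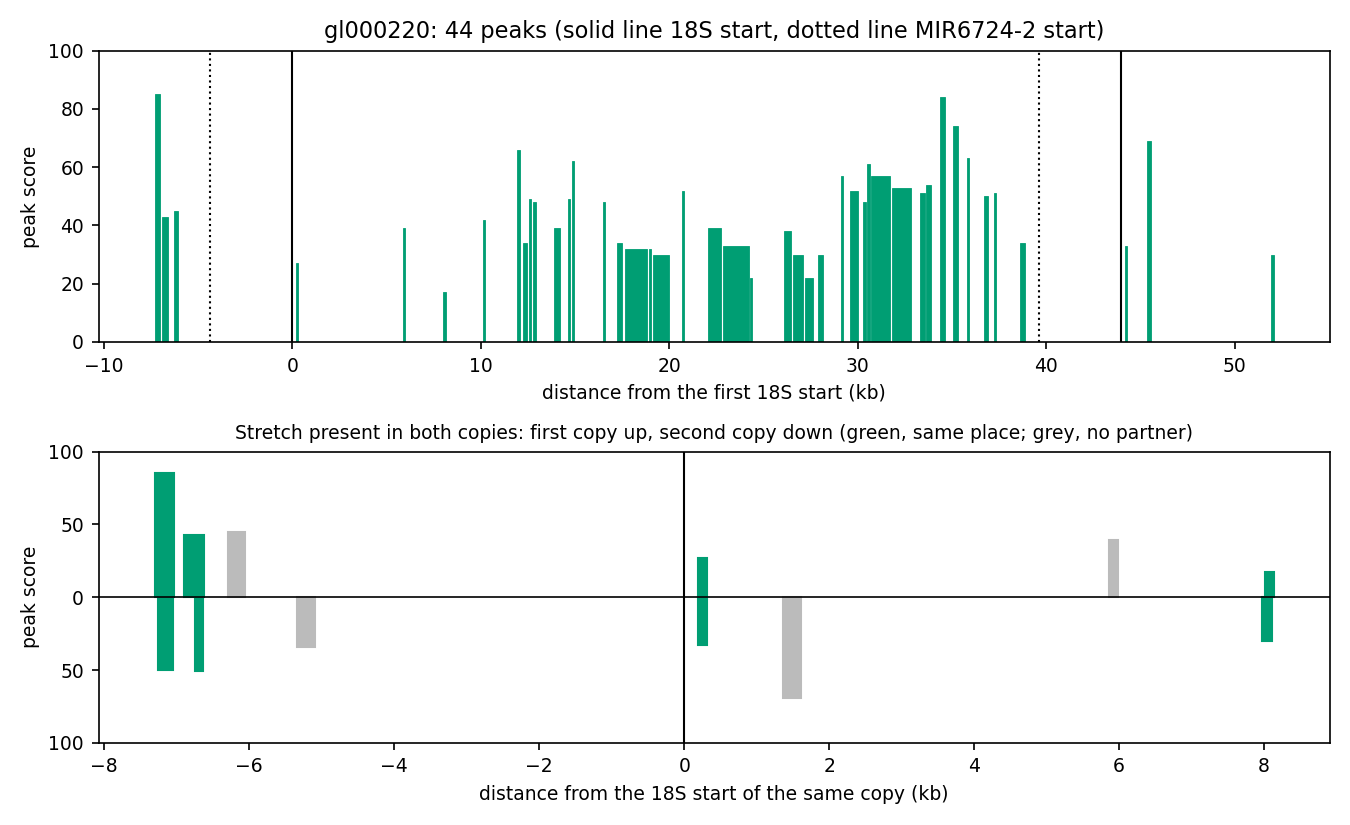
Peaks of gl000220 as bars of the deposited score (no unit) against the distance from the first 18S start (top, kb), and the stretch present in both copies aligned at the 18S start of each copy (bottom, kb, first copy upward and second copy downward). In the bottom panel 4 places carry a peak in both copies (green) and 2 peaks of each copy have no partner (grey).

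Within the spacer, the peaks differed between 3 parts of equal length. The first part (13 peaks) had a median score of 48 and a median width of 149 bp. The middle part (9 peaks) had the lowest median score, 33, and the largest median width, 418 bp. The last part, next to the second copy, had 12 peaks with a median score of 53.5 and a median width of 235 bp. All 7 peaks of 500 bp or more lay in the spacer, between 126708 and 141889. The widest, of 1344 bp (131945 to 133288), had a score of 33 and was centred on a simple repeat. The share of bases in peaks was alike in the 3 parts, 43.3%, 47.3% and 43.97%.

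Some of these peaks lay on repeats within the ribosomal unit. Alu elements, short interspersed repeats derived from 7SL RNA, held 10 of the 44 peaks, with scores from 34 to 84 (median 52.5) and a median width of 128 bp. Simple and low complexity repeats held 7, with scores from 22 to 48 (median 33). On assembled chromosomes 210 of 1080 peaks lay on a repeat of any kind. The share of the bases of gl000220 in such repeats was not analysed, so these counts do not show whether peaks favoured them. The highest scores of the contig were 85, on a CpG island in the first upstream cluster (101773 to 102043), 84 on an AluY (143450 to 143696) and 74 on sequence without an annotated repeat (144152 to 144409). These lay 2824, 5131 and 4424 bp upstream of a MIR6724-2 start. Of the 44 peaks 13 were annotated to LOC100507412, a long non-coding RNA gene whose exons lie in the spacer. By nearest gene, 24 peaks fell to MIR6724-2 (868 to 17234 bp upstream) and 16 to RNA28SN4 (1656 to 16450 bp downstream). The other 4 fell to copies of the 18S and 5.8S genes. One unit upstream of the spacer, from 77033 on, the contig had no peak before 101773. Whether it holds spacer sequence there was not analysed here.

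The other 30 contig peaks lay on 7 contigs: 12 on gl000214, 10 on gl000224, 3 on gl000195, 2 on gl000205 and 1 each on gl000193, gl000212 and gl000216. Here 16 were on intergenic sequence without a repeat name. The highest score, 195, was that of a peak of 464 bp on gl000195, assigned to chromosome 7 (138027 to 138490). It was also the widest of the class, ranked 31 in the list, and lay 51523 bp upstream of LOC389831. On gl000205, assigned to chromosome 17, there were scores of 142 (86630 to 86738) and 96 (34111 to 34358), both upstream of the pseudogene MGC70870. Of these 30 peaks 17 had an annotated start site on their contig, and only 1 of them lay within 1 kb of it. This was a peak of score 63 on gl000195 (86179 to 86442), 409 bp downstream of the start of LOC102724951, which RefSeq now names LINC03105.

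The peaks of gl000214 and gl000224 had low to middling scores, 19 to 66 and 18 to 92. Of their 22 peaks 9 lay on 3 kinds of element that came in the same order each time; the other 13 were on other annotation, and some of them lay between the 9. The distances below run between the 9 only, and the elements were picked after their values were seen. On gl000224 a peak on the long terminal repeat MER21B (score 59) was followed by 1 on the LINE element L1PA10 (48) after 739.5 bp and 1 on the satellite ACRO1 (48) after another 3076.5 bp. Intergenic peaks lay between them (2268 to 2383, score 53, and 2990 to 3120, score 24). The same order came again with MER21B (84), L1PA10 (92) after 446.5 bp and ACRO1 (59) after 3090.5 bp. On gl000214 it was MER21B (53), L1PA10 (66) after 407.5 bp and ACRO1 (36) after 2430 bp. Of the elements named here, L1PA10 and MER21B held 3 peaks each and ACRO1, a satellite of the acrocentric chromosomes, also 3. All 10 peaks of gl000224 were nearest to LOC100505874, a long non-coding RNA gene 87045 to 101862 bp away, and they included the lowest score of the class, 18 (579 to 703).

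Satellites with a single peak were HSATI on gl000212, with a score of 72 in intron 1 of FAM230C (40540 to 40667), SST1 on gl000193, assigned to chromosome 4, with a score of 21 (91873 to 91990), and the pentamer satellite on gl000216. In all, 238 of the 306 contig peaks were centred on a satellite, and 0 of the 1080 peaks on assembled chromosomes were, although 210 of these lay on some other repeat. Blacklisted regions had been removed from the list before deposit, and the part of that removal in the 0 was not tested. Those 210 had a median score of 57.5, a median width of 145 bp and another peak within 1 kb in 10.0% of cases. Chromosome peaks on repeats were therefore neither as closely packed as alpha satellite peaks nor as high in median score.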

How the data were processed

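The data were 1 deposited table of peaks for 2 pull-down and 2 input libraries. Per the file headers, HOMER annotated a narrow peak list, with blacklisted regions removed, on hg19. Per the submitters' processing notes, Bowtie2, Picard, MACS2, deepTools and HOMER were used, without versions. The score of each peak is the authors' deposited value, with no stated scale. How libraries were combined is not given in the sources used here. Depth is unknown.

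Positions, annotations and distances to start sites are the authors' and are printed as deposited. Width was end minus start plus 1, and spacing ran from centre to centre. Ribosomal start sites were computed as peak centre minus deposited distance. Intervals are exact Clopper-Pearson 95% intervals (SciPy 1.17.1, pandas 2.3.3). The members and classes were chosen with earlier results of these data known, and no difference between classes was tested. The code of the period scan was tested on simulated data for finding a planted whole-number period, which gives no threshold for the values reported. Named are the 3 highest, the lowest and the widest peak of each class, and genes nearest to 3 or more contig peaks; others named were chosen after their values were seen. All 14 gene identifiers and 7 of 8 transcript accessions matched RefSeq (GRCh38.p14), used for names only.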

Additional observations from a re-analysis of the deposited data

How the results depend on the processing

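Of 59 alternatives 39 left the value within its interval, within 1.5 times the count or share or, for the period scan, within 1 over the square root of the number of peaks, and 20 moved it. No paired analysis was possible because the list holds no value of single libraries, and no replicate could be left out. Restricting the list to peaks at or above its median score left 136 alpha satellite, 7 ribosomal and 9 other contig peaks, and the upper quartile left 95, 0 and 4, with 9 beta satellite peaks. At or above the median score, the median spacing rose to 872.5 bp on alpha satellite, 6260 bp on gl000220 and 52199 bp among other contig peaks. The median width of the latter became 193 bp. The share of the span in peaks became 2.66% on gl000220, 47.5% on gl000226 and 2.78% on gl000216, and the 3 pairs at the distance of the ribosomal copies fell to 0. Leaving out the contig with most peaks moved alpha satellite to a median score of 70.5 and a width of 439 bp, and beta satellite to a width of 170.5 bp and a spacing of 864 bp. Leaving out gl000199, an alternative chosen after seeing the data, moved the median score of all contig peaks from 67 to 55. Partners within 50 or 200 bp, also chosen then, gave 3 and 4 shared places. No contig could be left out for the ribosomal class, and gl000208, gl000214, gl000224 and gl000228 kept fewer than 4 peaks at the median score. The unknown depth and the lack of input values limit every comparison here.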
